A study of Rattus norvegicus with 8 samples.

Results

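The tachykinin and calcitonin gene-related peptide (CGRP) genes were examined in lumbar spinal cord (segments L6S1) from rats after repeated psychological stress and from controls. The set was defined by name and holds 10 genes. They are the tachykinin precursors Tac1 and Tac3, the tachykinin receptors Tacr1 and Tacr3, the CGRP genes Calca and Calcb, the receptor gene Calcrl, and its partners Ramp1, Ramp2 and Ramp3. Their 13 probes, on 40 spots, were found among the 30367 probes of the array by the gene name in the files. For Tac3, the probe is named Tac2 in the files and was matched by its transcript accession, which RefSeq now assigns to Tac3. The file names alone gave 12 probes of 9 genes.

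All 8 animals were male Wistar rats of 12 weeks. The 4 stressed rats underwent chronic water avoidance (WA) stress, in which a rat stands on a small platform in a water-filled cage, for 1 h daily over 10 days, and were killed 24 h after the last session. The 4 control rats were handled over the same days. The cord was pushed out of the spine with saline, the meninges were removed, and total RNA of each rat was hybridised to its own 1-colour Agilent array. Neither a peripheral ganglion nor a part of the cord (dorsal or ventral) was measured apart from the rest.

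Tac1 encodes substance P and neurokinin A, and Tac3 encodes neurokinin B, small peptides that neurons store in dense-core vesicles and release on strong activity. Substance P acts mainly through the NK1 receptor (Tacr1), and neurokinin B through the NK3 receptor (Tacr3). CGRP, made from Calca or Calcb, binds the calcitonin receptor-like receptor (Calcrl), which is active only when joined to a receptor activity-modifying protein: with Ramp1 it forms the CGRP receptor, and with Ramp2 or Ramp3 receptors for adrenomedullin. In the dorsal horn, substance P and CGRP arrive largely in the terminals of sensory neurons whose cell bodies lie outside the cord, while local dorsal horn neurons also transcribe Tac1 and Tac3, and motor neurons transcribe the CGRP genes.

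The probes on which most of the results rest are shown 5′ to 3′. The first pair is shown because the probes read different stretches of Tac1: capitals in the first mark the codons of the 11 residues of substance P, found by translating the probe (bases 13 to 45).
Tac1, substance P probe: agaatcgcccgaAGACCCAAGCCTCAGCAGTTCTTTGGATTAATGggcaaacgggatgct
Tac1, 3′ probe: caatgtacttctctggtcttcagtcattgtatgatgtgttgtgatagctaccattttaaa
These lie on the plus strand of the rn4 assembly at chr4:32651286-32651345 and chr4:32657551-32657610, and start at bases 256 and 952 of their transcripts. The next pair separates the alternative transcripts of Calca, of which the first encodes calcitonin and the second CGRP.
Calca, calcitonin probe: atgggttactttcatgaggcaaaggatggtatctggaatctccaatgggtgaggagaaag
Calca, CGRP probe: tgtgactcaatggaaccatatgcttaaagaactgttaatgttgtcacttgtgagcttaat
They lie on the minus strand at chr1:172688192-172688251 and chr1:172686203-172686262. The last set holds the single probes of Tac3, Tacr1 and Calcrl, at chr7:67723606-67723665 (plus strand), chr4:116780051-116780110 (plus strand) and chr3:67553206-67553265 (minus strand).
Tac3: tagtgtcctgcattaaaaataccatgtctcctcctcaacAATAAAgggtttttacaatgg
Tacr1: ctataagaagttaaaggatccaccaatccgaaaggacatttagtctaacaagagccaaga
Calcrl: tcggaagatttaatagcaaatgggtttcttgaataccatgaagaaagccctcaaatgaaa
Capitals in the Tac3 probe mark AATAAA, the polyadenylation signal, which was searched on the probe's own strand and stands in 1 of the 13 probes and in 8.39% of all probes on the array. Exons and UTRs of these positions were not annotated here.

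Levels are given as the log2 signal minus the 75th percentile of that array, so that 0 is the 75th percentile itself, and differences are stressed minus control. Differences were tested with limma over 23677 probes, and a gene is said to have risen or fallen where the adjusted p was below 0.1. An exact permutation test over all 70 choices of 4 of the 8 arrays is given beside it, which allows no p below 0.0286. P values measure only the spread between these samples, and the number of arrays limits the precision.

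Facts that hold for the whole series touch every value that follows. Each array had 22998 to 24064 probes well above background. Control replicate 2 stood apart from its group: on the first principal component, with 54.1% of the variance, it lay at 46.1 beside the stressed rats (8.23 to 34.5), and the other controls lay between -56.3 and -39.4. The 5′ minus 3′ probe difference of 1875 transcripts, each centred on its own mean over the arrays, split the arrays in the same way. Its median, relative to the average array, was 0.22 in control replicate 2. It was 0.09 to 0.17 in stressed rats and -0.30 to -0.18 in the other controls. Apart from control replicate 2 this value nearly followed group. Differences adjusted for it therefore rest largely on that array. A single slide carried all arrays, row 1 those of stressed rats and row 2 those of controls, so row and group cannot be told apart. Where leaving out control replicate 2 changes the call of a named gene, both values are given, and in the fit without it 42.4% of all tested probes were called.

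Of the 10 genes, Tacr1, the substance P receptor, fell by 25.2% in stressed rats, and no other member passed the test. This was 1 of 12 tested probes (adjusted p below 0.1 in limma), against 3.74% of all probes tested (2.77% higher and 0.971% lower in stressed rats). At an adjusted p below 0.05 limma called 0 of the 12 (0.477% of all probes), with 3 at an unadjusted p below 0.05 (20.3% of all probes). The probes with an unadjusted p below 0.05 were those of Tacr1 and Calcrl and the 3′ probe of Tac1. Stressed and control values were fully separate at 3 of the 12 probes (Tac1 3′, Tacr1 and Ramp2), each with lower stressed values, against 12.1% of all probes in either direction, 6.65% with higher and 5.44% with lower stressed values. The difference was negative at 8 of the 12 probes, with a median of -0.16 where the median of all tested probes was 0.06.

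**Figure D1:**
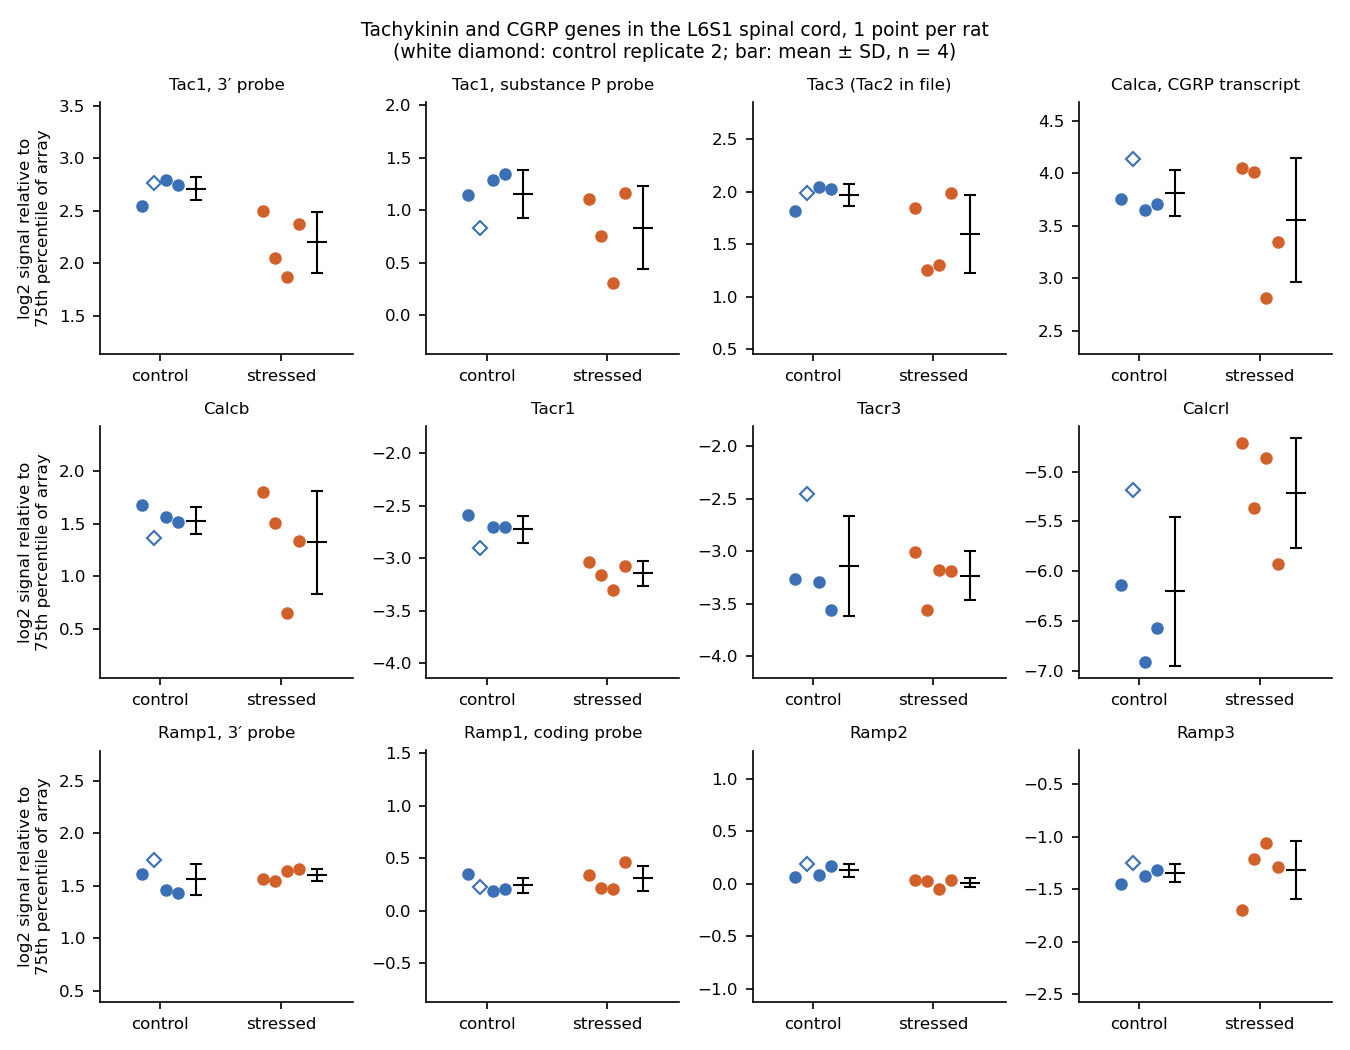
Level of each tested probe in every rat (y axis, log2 signal relative to the array's 75th percentile; each panel has its own range of equal height except where the values need more), with the mean ± SD of the 4 rats of each group and control replicate 2 as a white diamond. Stressed and control points are separate for the 3′ probe of Tac1, for Tacr1 and for Ramp2, and they overlap in every other panel.

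Tac1 is the precursor gene of substance P. At its 3′ probe the control rats had levels of 2.55, 2.76, 2.79 and 2.74 (replicates 1 to 4) and the stressed rats 2.50, 2.05, 1.87 and 2.37. Every stressed rat lay below every control rat, although stressed replicate 1 came within a small margin of control replicate 1. The mean was 2.71 ± 0.11 (SD, n = 4) in control and 2.20 ± 0.29 (SD, n = 4) in stressed rats, a difference of -0.51 (SE 0.15, 95% interval -0.85 to -0.18). This did not pass the adjusted threshold in limma (adjusted p = 0.133; exact permutation test, two-sided p = 0.0286). Without control replicate 2 the difference was nearly the same, -0.50 (SE 0.16), and passed (adjusted p = 0.0546).

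The second Tac1 probe, over the substance P codons printed above, is a single spot. It read 1.14, 0.83, 1.29 and 1.35 in control rats and 1.10, 0.76, 0.31 and 1.17 in stressed rats, and the groups overlapped. As at the 3′ probe, stressed replicate 3 was the lowest of all rats, followed by stressed replicate 2. The difference was -0.32 (SE 0.21, 95% interval -0.80 to 0.16, limma adjusted p = 0.400). The gap between the Tac1 probes, coding minus 3′, differed between groups by 0.19 (exact permutation test, two-sided p = 0.229), within the spread of the rats.

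Tac3, which encodes neurokinin B, had levels of 1.82, 1.99, 2.05 and 2.03 in control rats and 1.85, 1.26, 1.30 and 1.99 in stressed rats. Stressed replicates 2 and 3 lay well below all other rats, and stressed replicates 1 and 4 lay within the control range. The difference was -0.37 (SE 0.18, 95% interval -0.78 to 0.04, limma adjusted p = 0.281). The same pair of stressed rats had the lowest Tac1 at both probes. Across the 8 rats, Tac1 (3′ probe) and Tac3 had a Pearson r of 0.918 (permutation p = 0.00570, adjusted p = 0.166 over 45 pairs of members) and a Spearman rho of 0.857 (permutation p = 0.0107, adjusted p = 0.161). With each group centred on its own mean r was 0.903. Leaving out the rats with the Tac1 levels farthest from the median lowered r to 0.548. Dropping them also narrows the range of Tac1, so this value cannot show whether the relation rests on those rats.

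Calca was read by a probe for each of its transcripts. The calcitonin transcript was well above background in 1 control rat and in 0 stressed rats, and was not tested. The CGRP transcript was well above background in all 8 rats, at 3.76, 4.14, 3.65 and 3.71 in control and 4.06, 4.01, 2.81 and 3.35 in stressed rats. The stressed rats spread more widely than the controls. Stressed replicates 3 and 4 lay below all controls, and stressed replicates 1 and 2 lay above all controls but control replicate 2. The difference was -0.26 (SE 0.28, 95% interval -0.91 to 0.39, limma adjusted p = 0.617). The SD was 0.22 in control and 0.59 in stressed rats (n = 4 each).

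Calcb, the neighbouring gene that encodes the beta form of CGRP, was measured at chr1:172780881-172780940 (plus strand). Its levels were 1.67, 1.36, 1.56 and 1.51 in control and 1.80, 1.51, 0.65 and 1.34 in stressed rats. Stressed replicate 1 was the highest of all rats and stressed replicate 3 the lowest. The difference was -0.20 (SE 0.23, 95% interval -0.73 to 0.32, limma adjusted p = 0.624). Calca and Calcb had a Pearson r of 0.807 across the 8 rats (permutation p = 0.0309, adjusted p = 0.231 over the 45 pairs) and a Spearman rho of 0.476 (permutation p = 0.243), and r was 0.743 without the rats farthest from the median of Calca. None of the 45 pairs passed an adjusted p below 0.1 by Pearson r, and 8 had an unadjusted permutation p below 0.05.

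Tacr1 encodes the NK1 receptor, through which substance P acts on dorsal horn neurons. Its probe is spotted 10 times on each array, so that its level rests on more spots than those of most members. Control rats had levels of -2.59, -2.91, -2.71 and -2.71 and stressed rats -3.04, -3.16, -3.31 and -3.08. The stressed values were all lower than the control values, of which control replicate 2 lay nearest to them. The mean was -2.73 ± 0.13 (SD, n = 4) in control and -3.15 ± 0.12 (SD, n = 4) in stressed rats, a difference of -0.42 (SE 0.10, 95% interval -0.64 to -0.20, limma adjusted p = 0.0870; exact permutation test, two-sided p = 0.0286).

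The spots of the Tacr1 probe on 1 array had an SD between 0.0419 and 0.128. The 40 control spots ran from -3.04 to -2.50 and the 39 stressed spots used from -3.40 to -2.97, and the groups met only where the lowest spot of control replicate 2 fell among spots of stressed replicates 1, 2 and 4. The call depended on the set of arrays. Without control replicate 2 the difference was -0.48 (SE 0.08, adjusted p = 0.00563), and leaving out any one of the other 7 arrays gave differences from -0.46 to -0.37 that did not pass in limma. Adjusted for the 5′ minus 3′ value of the arrays, which rests largely on control replicate 2, the difference was -0.27 (adjusted p = 0.150). With a normexp background correction it was -0.30 (adjusted p = 0.336).

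**Figure D2:**
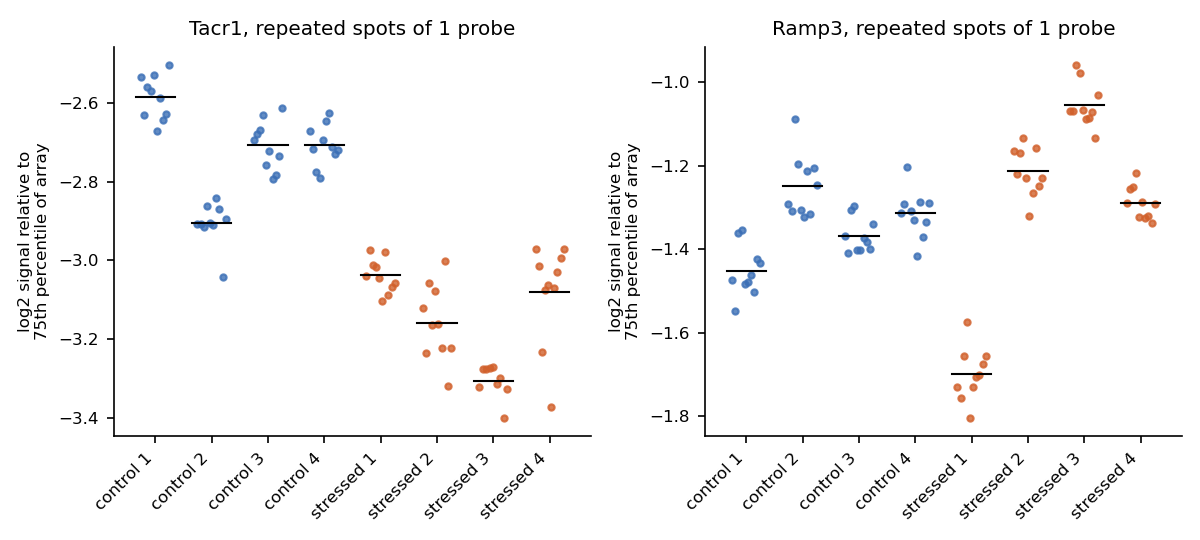
Repeated spots of the Tacr1 probe (left) and of the Ramp3 probe (right) on each array (y axis, log2 signal relative to the array's 75th percentile; bars are array means). The Tacr1 spots of the stressed rats lie at or below -2.97, and the Ramp3 spots of stressed replicate 1 lie below those of every other rat.

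Tacr3, the neurokinin B receptor gene, read -3.26, -2.46, -3.29 and -3.57 in control and -3.01, -3.56, -3.18 and -3.19 in stressed rats (chr2:232404773-232404832, plus strand). Control replicate 2 was the highest of all rats and the remaining controls lay among the stressed rats or next to them. The difference was -0.09 (SE 0.24, 95% interval -0.64 to 0.46, limma adjusted p = 0.843), and it turned to 0.14 (SE 0.14) without control replicate 2.

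Calcrl encodes the seven-helix subunit shared by the receptors for CGRP and adrenomedullin. Its signal was low, 19.3 to 50.8 intensity units in control and 32.3 to 67.0 in stressed rats, though well above background on all 8 arrays. The levels were -6.14, -5.18, -6.91 and -6.57 in control and -4.71, -5.36, -4.86 and -5.93 in stressed rats. Stressed rats lay above control replicates 1, 3 and 4, and control replicate 2 lay inside the stressed range. The difference of 0.99 (SE 0.41, 95% interval 0.04 to 1.94) was the largest in size of the members and did not pass in limma (adjusted p = 0.235; exact permutation test, two-sided p = 0.0857). Without control replicate 2 it was 1.33 (SE 0.32, adjusted p = 0.0210), with a normexp background correction 0.37, and adjusted for the 5′ minus 3′ value of the arrays 0.17.

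**Figure D3:**
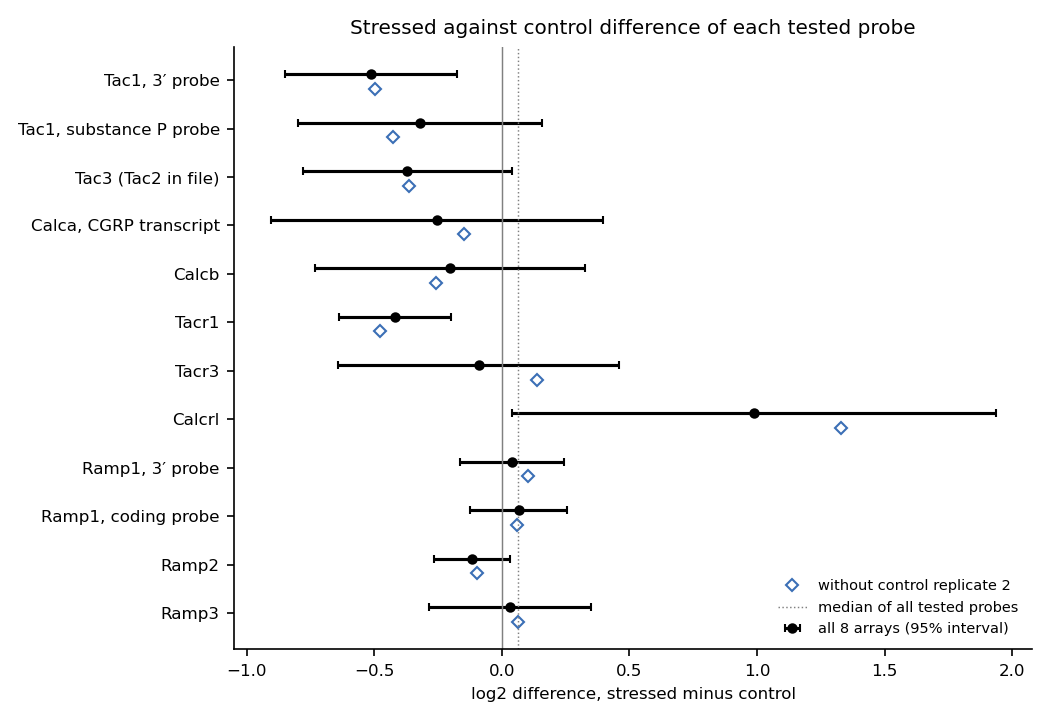
Difference of each tested probe (x axis, log2 stressed minus control), with the 95% interval over all 8 arrays as a black bar, the value without control replicate 2 as an open diamond and the median of all tested probes, 0.06, as a dotted line. The intervals of the 3′ probe of Tac1, of Tacr1 and of Calcrl do not reach 0, and Tacr3 changes sign without control replicate 2.

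The Ramp genes encode the single-pass partners of Calcrl and differed little between the groups. Ramp1, which makes Calcrl a CGRP receptor, was measured by probes at chr9:90449978-90450037 (3′) and chr9:90449632-90449691 (coding), both on the plus strand. The 3′ probe read 1.43 to 1.75 in control and 1.55 to 1.66 in stressed rats, a difference of 0.04 (SE 0.09, 95% interval -0.16 to 0.24). The coding probe read 0.19 to 0.34 in control and 0.21 to 0.46 in stressed rats, a difference of 0.07 (SE 0.08, 95% interval -0.13 to 0.26). The limma adjusted p was 0.805 and 0.663. The upper bounds of these intervals lie at 0.24 and 0.26 log2 units.

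Ramp2 (chr10:90276621-90276680, plus strand), which makes Calcrl an adrenomedullin receptor, read 0.07, 0.19, 0.09 and 0.17 in control and 0.04, 0.02, -0.05 and 0.04 in stressed rats. The groups were separate, with lower stressed values, by a narrow margin. The difference was -0.12 (SE 0.06, 95% interval -0.27 to 0.03, limma adjusted p = 0.333; exact permutation test, two-sided p = 0.0286). Ramp3 (chr14:87434231-87434290, plus strand), the other adrenomedullin partner, read -1.45, -1.25, -1.37 and -1.31 in control and -1.70, -1.21, -1.05 and -1.29 in stressed rats. Its stressed rats held the highest and the lowest value, and the difference was 0.03 (SE 0.14, 95% interval -0.29 to 0.35, limma adjusted p = 0.908). Its 10 spots on an array had an SD between 0.0384 and 0.0749, below the SD of 0.27 over the stressed rats and close to that of 0.0858 over the control rats.

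**Figure D4:**
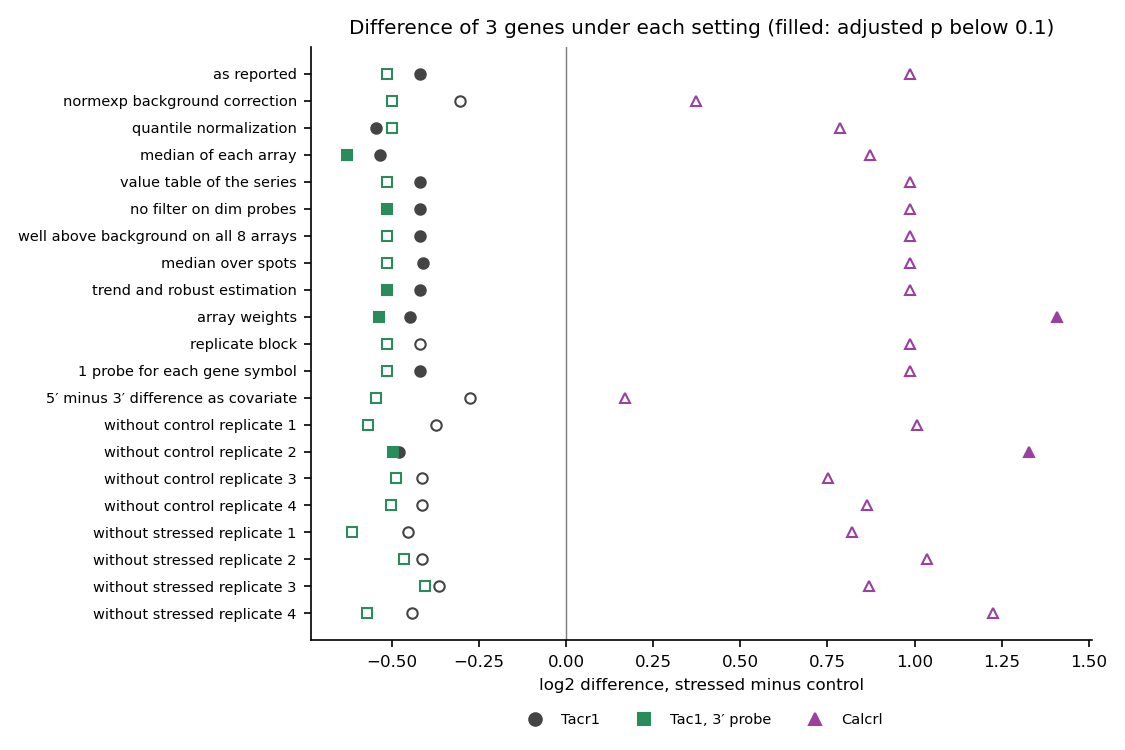
Difference of Tacr1, the 3′ probe of Tac1 and Calcrl (x axis, log2 stressed minus control) under each way of processing and with each array left out (y axis). Filled symbols have an adjusted p below 0.1: Tacr1 has 11 of 21, Tac1 5 of 21 and Calcrl 2 of 21, and no value crosses 0.

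Lists of genes around these peptides were read from the same fit, by the brightest probe of each gene. Of 9 further family ligands and receptors, 8 were tested and 0 passed in limma (1 at an unadjusted p below 0.05), with a median difference of 0.01 (the probe of Tac3 stands in this list under its older name). Calcr, the calcitonin receptor, had a difference of -0.40 (SE 0.13, adjusted p = 0.174), which was -0.44 without control replicate 2 (adjusted p = 0.0518) and -0.047 with normexp background correction (adjusted p = 0.938). Gpr182, a receptor once taken for an adrenomedullin receptor, had 0.45 (SE 0.37, adjusted p = 0.510). Crcp, which encodes the CGRP receptor component protein, had -0.14 (SE 0.06, adjusted p = 0.263), with groups that did not overlap, while its dimmer probe had 0.27 (adjusted p = 0.249). The difference of Crcp was again -0.14 without control replicate 2, and it passed there (adjusted p = 0.0953). Adm2, the gene of a further ligand of Calcrl, had 0.25 (SE 0.22, adjusted p = 0.547). Iapp, the amylin gene, was well above background on 1 array and was not tested.

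Of 12 genes for peptide processing and dense-core vesicles, 11 were tested, 0 rose and 1 fell, with a median difference of -0.06. Scg2, which encodes secretogranin II, a protein of the dense-core vesicle, read 3.49, 3.52, 3.48 and 3.46 in control and 3.05, 3.00, 3.01 and 3.22 in stressed rats. The control rats lay close together and the groups were separate. Scg2 fell by 0.42 on the log2 scale (SE 0.07, limma adjusted p = 0.0583), and by 0.41 without control replicate 2 (adjusted p = 0.00592). The call was lost with any other single array left out except stressed replicate 4 (adjusted p from 0.151 to 0.201). Scg3 had a difference of 0.25 (adjusted p = 0.226), Chga 0.15 (adjusted p = 0.459) and Pcsk1, a convertase that cleaves peptide precursors, -0.19 (adjusted p = 0.568). Scg3 passed without control replicate 2 at 0.32 (adjusted p = 0.0303), as did Chga at 0.26 (adjusted p = 0.0291).

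Of 7 genes for peptide degradation, 6 were tested, 1 rose and 0 fell, with a median of -0.10. Ece2, an endothelin-converting enzyme that also cleaves neuropeptides, read -4.89, -4.50, -4.64 and -4.64 in control and -4.24, -4.05, -4.19 and -3.65 in stressed rats, with every stressed rat above every control rat. Ece2 rose by 0.63 (SE 0.15, limma adjusted p = 0.0895), and by 0.69 without control replicate 2 (adjusted p = 0.0151). The call was lost with any other array left out (adjusted p from 0.134 to 0.248), with normexp (0.38, adjusted p = 0.307), quantile scaling (0.44, adjusted p = 0.197) and median scaling (0.52, adjusted p = 0.111), with the replicate block (adjusted p = 0.207), and when adjusted for the 5′ minus 3′ value of the arrays (0.54, adjusted p = 0.162). Mme, which encodes neprilysin, the enzyme that degrades substance P, had -0.34 (SE 0.15, adjusted p = 0.261), and Ace, a further peptidase, -0.27 (SE 0.09, adjusted p = 0.178), with -0.02 at its dimmer probe. Both passed without control replicate 2, Mme at -0.45 (adjusted p = 0.0336) and Ace at -0.31 (adjusted p = 0.0330), whereas adjusted for the 5′ minus 3′ value of the arrays Mme was at -0.038 (adjusted p = 0.891) and Ace at -0.16 (adjusted p = 0.402). Dpp4 was well above background on 1 array and was not tested.

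Of 20 genes for receptor coupling and desensitization, all were tested and 0 passed in limma (6 at an unadjusted p below 0.05), with a median of 0.19 against 0.06 for all probes. Gna11, a G protein subunit to which the NK1 receptor couples, had 0.77 (SE 0.32, adjusted p = 0.234), and read -3.18 in control replicate 2, above all other rats. Adcy1, an adenylyl cyclase, had 1.25 (SE 0.64, adjusted p = 0.302) and was well above background in 1 control and 3 stressed rats. Without control replicate 2 both passed, Gna11 at 1.10 (adjusted p = 0.00176) and Adcy1 at 1.93 (adjusted p = 0.00273). In that fit the Adcy1 control levels were -8.74, -8.46 and -8.92, with at most 1 control rat well above background. The size of the Adcy1 difference is therefore uncertain. Adjusted for the 5′ minus 3′ value of the arrays Gna11 was at 0.013 (adjusted p = 0.972) and Adcy1 at -0.16 (adjusted p = 0.862), and with normexp they were at 0.46 and 0.18. The largest negative values were those of the receptor kinase gene Grk6, -0.27 (adjusted p = 0.195), and of Prkaca, the catalytic subunit of protein kinase A, -0.25 (adjusted p = 0.181), and these passed without that rat too (Grk6 -0.34, adjusted p = 0.0242; Prkaca -0.30, adjusted p = 0.0141). Over all rats the dimmer probes of Grk6 and Prkaca had differences of the opposite sign, 0.49 (adjusted p = 0.381) and 1.08 (adjusted p = 0.270).

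In a piece of whole cord, fewer cells of a type and less RNA per cell cannot be told apart, so marker genes are given beside the members, as the sum of their linear levels on each array. Dorsal horn neuron markers (11 of 11 tested, 0 called, 1 at an unadjusted p below 0.05) had sums of 55.6 to 64.5 in control and 50.5 to 57.4 in stressed rats (exact permutation test, two-sided p = 0.114), with the lowest sums in stressed replicates 3 and 2, the rats with the lowest Tac1. The 11 genes did not move together: 8 had negative and 3 positive differences (median -0.13). Motor neuron markers (5 of 6 tested, 0 called, 0 at an unadjusted p below 0.05) had sums of 9.20 to 11.7 in control and 7.10 to 10.3 in stressed rats (exact permutation test, two-sided p = 0.286). Of the 5 tested genes 4 had negative differences, and Chat had 0.67 (limma adjusted p = 0.272). Prph, the brightest at 2.72 in control rats, weighs most in the sum. The sum was highest in control replicate 2 and lowest in stressed replicate 3, which were also the highest and the lowest for the CGRP transcript of Calca. For Calcb, stressed replicate 3 was likewise the lowest at 0.65, but control replicate 2 was the lowest control at 1.36. The part of these cell types in the values of the peptide genes was not tested.

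Markers of dorsal root ganglion sensory neurons (7 of 9 tested, 0 called, 0 at an unadjusted p below 0.05) had sums of 0.390 to 0.677 in control and 0.434 to 0.574 in stressed rats (exact permutation test, two-sided p = 0.514). Of these, Prdm12 was well above background on 0 arrays and Mrgprd on 1. Schwann cell markers, which come with nerve roots, varied more within a group than any other list, from 0.475 to 53.3 in control and from 0.433 to 13.5 in stressed rats (5 of 5 tested, 0 called, 1 at an unadjusted p below 0.05). The exact permutation test on these sums gave a two-sided p of 0.343. Control replicate 1 had the highest sum, and of the controls it had the lowest Tac1 at the 3′ probe and the highest Calcb. Stressed replicate 3 had the next highest sum (13.5), but the lowest Calcb (0.65) and CGRP transcript of Calca (2.81) of all rats.

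Neuron markers (6 of 7 tested, 0 called, 1 at an unadjusted p below 0.05) had sums of 82.2 to 86.8 in control and 86.7 to 102 in stressed rats (exact permutation test, two-sided p = 0.0571). Astrocyte, microglia, red blood cell and meninges lists held 0 called genes in limma, with 1 astrocyte gene and none of the rest at an unadjusted p below 0.05. Astrocyte sums were 92.7 or more in control and 97.9 to 128 in stressed rats. The sums were 6.67 to 8.30 and 6.67 to 8.40 for microglia, 53.6 to 81.7 and 45.1 to 98.7 for red blood cells, and 2.22 to 6.56 and 2.25 to 5.05 for meninges and fibroblasts, in control and stressed rats. The lists of vessel cells had 1 called gene each, Pecam1 of the endothelium (0.40, adjusted p = 0.0927) and Rgs5 of mural cells (0.46, adjusted p = 0.0816), which rose. The other 5 of the 6 mural genes had negative differences (list median -0.28), and of the 8 endothelial genes 6 were positive and 2 negative (median 0.11), with Vwf at -0.32 (adjusted p = 0.236). The summed levels of the lists overlapped, at 7.81 to 9.54 and 7.67 to 8.71 for endothelial cells and 2.17 to 3.35 and 2.11 to 3.96 for mural cells. In the oligodendrocyte list Mog rose by 0.90 (adjusted p = 0.0721), and the sums were 227 to 333 and 247 to 342. These calls held without control replicate 2 and were lost with any other array left out (adjusted p up to 0.266 for Pecam1, 0.250 for Rgs5 and 0.220 for Mog). With normexp all 3 were lost (adjusted p = 0.168, 0.138 and 0.111), and adjusted for the 5′ minus 3′ value of the arrays Pecam1 and Rgs5 were lost (0.43, adjusted p = 0.102, and 0.27, adjusted p = 0.107) and Mog stayed just inside at 0.53 (adjusted p = 0.0999).

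The genes whose levels over the 8 arrays were most like those of 4 members were listed by Pearson r. The search covered tested probes of other genes with a symbol, and left out probes named only by a locus, transcript or probe identifier. For Tac1 they were Inha (0.977), Ttll3 (0.973) and Rhbdd3 (0.973), and for Tacr1 they were Rbbp5 (0.991), Rpl3 (0.987) and Pgm2l1 (0.987). For Calca they were Galnt12 (0.960), Pla2g4f (0.943) and Wdr77 (0.942), and for Calcrl they were Stt3a (0.991), Hk2 (0.991) and Vax1 (0.990). These are the highest values among the probes searched, over 8 arrays that share 1 slide, and are given as a description.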

How the data were processed

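RNA of the L6S1 cord of 8 rats was measured on 1-colour arrays. The authors deposited the spot intensity of each array from Agilent Feature Extraction 10.7.3.1, background-subtracted and detrended within the array per the file headers, and a table of these signals after rounding. Neither showed a scaling of one array to another. The paper names dChip, and its array test is not given in the sources used here. Control spots (4259) were left out, leaving 58717, and outlier spots were set to missing. From each log2 signal the 75th percentile of its array was subtracted, spots of a probe were averaged, and probes well above background (at least 0.5 of their spots) on at least 4 of 8 arrays were tested, 23677 of 30367. A further 10 probes missing on an array were not tested.

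Groups were compared with limma 3.58.1 (lmFit, eBayes; R 4.3.3 with the data.table package, version 1.17.8) without covariates, with Benjamini-Hochberg adjustment over all tested probes, and single values with an exact permutation test. The fit was tested on simulated data. The text names all 10 members with every probe, from each pathway list the genes called at 0.1 and the 2 largest differences each way, and the 3 genes most like Tac1, Tacr1, Calca and Calcrl. Prdm12, Mrgprd, Crcp, Iapp, Dpp4, Pecam1, Vwf, Rgs5 and Mog fall outside this rule or were singled out after their values were seen. The members, the pathway and marker lists and the tests were chosen with earlier results of these data known. Coordinates are those of the files (rn4). Alternatives were a normexp background correction (offset 50), quantile or median scaling, the value table, other filters on dim probes, the median over spots, a variance trend with robust estimation, array weights, replicate number as a block, 1 probe per symbol, the 5′ minus 3′ difference of transcripts with probes at least 300 bases apart as a covariate, and leaving out each array.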

Additional observations from a re-analysis of the deposited data

Results flagged for a closer look

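The highest or lowest rat of each group was set against the other rats of that group for all 13 member probes and the brightest probes of the named pathway genes, Pecam1, Rgs5 and Mog. Of 62 groups of 4 rats 2 were marked, where chance marks about 1 in 20, or 3.1. Both belonged to Adcy1, the adenylyl cyclase gene. Control replicate 2 was the highest control rat at -5.99, and its gap to the next took up 0.842 of the range of the group. Stressed replicate 2 was the lowest stressed rat at -7.50, with a gap of 0.918 of the range. Adcy1 passed the test without control replicate 2, at 1.93 (limma adjusted p = 0.00273), and without stressed replicate 2 it did not (adjusted p = 0.369). Only 1 control rat was well above background for Adcy1, so these differences are set largely against values near background. No group of the member probes was marked. No comparison of effects between further groups was possible, since the series has a single contrast, and all array files were used.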

How the results depend on the processing

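Across 21 fits (20 for the coding probe of Tac1) the differences of both Tac1 probes, Tac3, Tacr1, Calcrl and Ramp2 kept their sign. Tacr1 ranged from -0.55 to -0.27 (adjusted p 0.00192 to 0.336), the 3′ probe of Tac1 from -0.63 to -0.40 (0.0138 to 0.329) and Calcrl from 0.17 to 1.41 (0.00658 to 0.821). In limma 885 probes were called (655 higher, 230 lower), 1 of them a member probe. The counts were 229 and 0 with normexp, 3010 of 30357 and 2 without a filter, 11983 and 5 with array weights, and 2402 (1162 higher, 1240 lower) and 0 with the 5′ minus 3′ covariate. Quantile scaling called 1180 probes (685 higher, 495 lower). Median scaling called 1266 (597 higher, 669 lower) and 2 member probes, and moved the median of all probes from 0.06 to -0.05. A variance trend called 2 member probes. Leaving out 1 array gave 0 to 10038 probes and 0 to 3 member probes: the highest counts are those without control replicate 2, and without any other array 0 to 72 probes and 0 member probes were called, with 3003 to 4398 probes and 2 to 4 member probes at an unadjusted p below 0.05. Normexp left 3 member probes and the covariate 4 at an unadjusted p below 0.05. Replicate number as a block called 0 probes and 0 member probes, with 4292 and 2 at an unadjusted p below 0.05 (Tacr1 -0.42, adjusted p = 0.211). Same-numbered rats correlated at 0.0951, 0.120, -0.0869 and 0.305, and only replicate 4 matched its own number best. This check showed no clear pairing by number and cannot exclude a weak one.

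Signs turned only where the difference was small against its error, or with the covariate. Ramp3 was -0.020 with quantile scaling, -0.084 with median scaling, -0.045 with the covariate, and -0.00393, -0.00215 and -0.055 without control replicate 1 and stressed replicates 2 and 3 (leave-one-out range -0.055 to 0.16). The 3′ probe of Ramp1 was -0.074 with median scaling and with the covariate and -0.00302 without control replicate 4 (range -0.00302 to 0.10), and its coding probe -0.049 with median scaling. Tacr3 was 0.045 with array weights, 0.14 without control replicate 2 and 0.019 without stressed replicate 2 (range -0.23 to 0.14). Calca was 0.030 with array weights and Calcb 0.023 without stressed replicate 3 (range -0.36 to 0.023). With the covariate Chga was -0.070, Adcy1 -0.16 and Pcsk1 0.11. The cause was not tested. Precision is limited by 4 arrays a group and, for Calcrl, by the small signal over background.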
